A study of Homo sapiens with 4 samples.

Results

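The genes of the cytosolic ribosomal proteins were followed in HaCaT cells, an immortalised human keratinocyte line, after 72 h with a mix of inflammatory cytokines. Members were taken by name: rows named RPL or RPS with a number, with or without the endings A, X, L or L1, together with RPLP0, RPLP1, RPLP2 and RPSA. This gave 82 of 27356 genes, 50 of the large (60S) and 32 of the small (40S) subunit, and each carried an identifier found in GENCODE 29. Of the names in that annotation that match the rule, RPL3L and RPL10L were without a row and not analysed here.

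Polyadenylated RNA was sequenced from 4 libraries, all from the same line plated to 50% density. In 2 libraries the cells had received phosphate-buffered saline (PBS), and in 2 they had received M5, made of IL-1α, IL-17, IL-22, TNF-α and Oncostatin M at 10 μg/L each. For the M5 libraries one tag gives 25 μM DAC instead; titles, protocols and series description give M5 and decided the grouping here. Whether replicates were cultured apart is left unsaid. Each p-value below sets the difference between the groups against the spread between libraries of a group. That spread is estimated in part over all tested genes and may be technical.

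Total counts per library lay between 15858644 and 19749612, and mitochondrially encoded genes held 3.42% to 4.29% of them. The keratinocyte label fits its markers: all 7 listed genes (KRT5, KRT14, KRT17, KRT6A, TP63, DSG3 and SFN) passed the filter, and their summed FPKM was 3701 to 3753 in PBS and 5018 to 5294 in M5. The summed FPKM of the markers with a row was at most 2.40 for melanocytes (4 of 5), 0.667 for fibroblasts (4 of 5) and 0.623 for endothelium (3 of 4). Of 5 leukocyte markers 2 had a row, with sums of 1.55 to 2.35 in PBS and 4.66 to 5.12 in M5, nearly all of it CD14; the part of these levels in the results was not tested. In bulk RNA, fewer cells of a kind and less RNA per cell cannot be told apart.

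The ribosome translates mRNA with a small subunit that decodes and a large subunit that joins amino acids, and nearly all ribosomal proteins are present in equal numbers. Their genes are scattered over the genome yet transcribed at high and similar rates. The mRNAs typically begin with a C followed by a run of pyrimidines, the 5′ terminal oligopyrimidine (TOP) tract, through which growth signals acting by mTOR and the RNA-binding protein LARP1 set their stability and translation. In keratinocytes, as in other dividing cells, ribosome production is known to go with growth.

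The members lie on 21 chromosomes, and what they have in common outside their names is shown first at their start sites. RefSeq promoters (GRCh38.p14) were matched by symbol for 66 of the 82 members, 11 of which have more than 1 listed start. A C at the annotated start that opened a run of at least 5 pyrimidines was found for 47 members (71.2%), against 5.14% of all 27305 symbols in the same table. The share was 70.7% in the 60S and 72.0% in the 40S. The windows below show 30 bases before the start in lower case, then 20 bases from the start on, with the pyrimidine run that opens the transcript in capitals. The first lines are members that had lower levels with M5, the next lines abundant or steady members, and the last lines the paralogs.
RPL22 (chr1:6199576-6199625, minus strand): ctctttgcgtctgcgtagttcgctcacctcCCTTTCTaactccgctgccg
RPS23 (chr5:82278335-82278384, minus strand): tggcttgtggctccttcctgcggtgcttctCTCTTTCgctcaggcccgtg
RPL12 (chr9:127451387-127451436, minus strand): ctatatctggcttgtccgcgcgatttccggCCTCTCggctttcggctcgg
RPS6 (chr9:19380217-19380266, minus strand): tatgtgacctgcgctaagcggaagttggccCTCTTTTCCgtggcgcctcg
RPS27 (chr1:153990732-153990781, plus strand): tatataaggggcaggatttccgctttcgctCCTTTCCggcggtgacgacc
RPS4X (chrX:72277229-72277278, minus strand): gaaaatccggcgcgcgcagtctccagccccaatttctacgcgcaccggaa
RPS12 (chr6:132814539-132814588, plus strand): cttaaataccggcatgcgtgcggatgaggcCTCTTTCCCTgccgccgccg
RPL28 (chr19:55385902-55385951, plus strand): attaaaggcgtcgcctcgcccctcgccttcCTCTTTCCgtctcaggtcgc
RPL26 (chr17:8383174-8383223, minus strand): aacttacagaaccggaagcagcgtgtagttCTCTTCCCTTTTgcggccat
RPL22L1 (chr3:170870176-170870225, minus strand): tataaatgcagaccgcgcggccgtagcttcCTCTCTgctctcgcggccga
RPL7L1 (chr6:42879586-42879635, plus strand): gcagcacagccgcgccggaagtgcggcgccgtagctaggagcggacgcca
RPS27L (chr15:63157458-63157507, minus strand): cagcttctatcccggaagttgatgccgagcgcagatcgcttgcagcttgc

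In the windows shown, the runs are 6 bases long in RPL12 and 12 in RPL26. Over all starts of members that qualify the median was 8 and the longest run 19. RPL7L1 and RPS27L open with a G and have no run, and neither start listed for RPL26L1 has one, whereas RPL22L1 has a run of 6. RPS4X opens with an A at its listed start. The letters CTTTCC stood between 10 bases before and 15 bases from the start on in 27.3% of members and 1.65% of all symbols. CCGGAAG, the core that ETS factors bind, was found on either strand of the 300 bases in 36.4% of members and 12.2% of all symbols; CACGTG, the E-box of MYC, in 7.58% and 8.77%. These matches describe the annotated windows only. Among matched members, 22 of 36 that had lower levels with M5 and 20 of 24 that did not pass the test had the pyrimidine start; this difference was not tested.

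Ribosomal protein genes had slightly lower levels in M5 than in PBS, in both subunits. Of 75 members with a mean FPKM of at least 1, 46 fell and 0 rose by edgeR's quasi-likelihood test at an adjusted p under 0.05, where 27.1% of all 10809 tested genes fell and 28.8% rose. DESeq2 gave 43 lower and 0 higher, against 21.8% and 25.9% of all tested genes. The median member was 1.14-fold lower, a log2 fold change of -0.19, beside -0.01 for the median tested gene. In 57 of 75 members both M5 values lay below both PBS values, against 39.4% of all tested genes, and in 2, RPL28 among them, both lay above, against 37.8%, on the TMM scale. The count differed with the libraries kept. When 1 library is left out its group has a single library, which is assumed to vary like the other group, and that other group alone supplies the spread. Without PBS replicate 2, 20 members fell (21.8% of all genes then tested), and without PBS replicate 1, 36 (22.0%). Without M5 replicate 2, 55 fell (26.8%) and 1 rose (28.8%).

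The size of the shift depends on the scaling. TMM, used throughout, scales each library by the genes between the extremes. With plain library totals 65 members fell and 0 rose, with the whole table at a median of -0.16, and with TPM scaling 68 fell and 0 rose at a median of -0.19. Of all tested genes 41.3% fell and 20.4% rose in the first of these fits, 43.8% and 18.8% in the second. Lower calls thus made up 48.5% of all calls with TMM, 67.0% with totals and 70.0% with TPM scaling. A change of scaling moves all genes by nearly the same amount, so the distance of the 60S and 40S medians from the median of all tested genes, -0.17 and -0.18 on the log2 scale, is fixed by construction across these 3 fits.

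Large and small subunit gave similar medians. Of 48 tested 60S members 28 fell (58.3%), with a median log2 fold change of -0.18 and quartiles of -0.22 and -0.09. Of 27 tested 40S members 18 fell (66.7%), with a median of -0.20 and quartiles of -0.31 and -0.14. The medians differed by less than the spread between replicates, an SD of 0.045 for the 60S and 0.047 for the 40S median. Without PBS replicate 1 or M5 replicate 2 the 40S median was -0.28 and -0.26, and the 60S median -0.20 and -0.19. The fold changes were also narrowly spread: the SD of log2 fold changes was 0.169 over the members and 0.944 over all tested genes. Of 75 members 4, RPL39L, RPL22, RPS23 and RPS2, passed the test and fell at least 1.5-fold, as 9.31% of all tested genes did. The RPS2 row holds only 46 to 86 counts per library, and its log2 value was -0.39 once its pseudogene rows were summed into it.

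**Figure D1:**
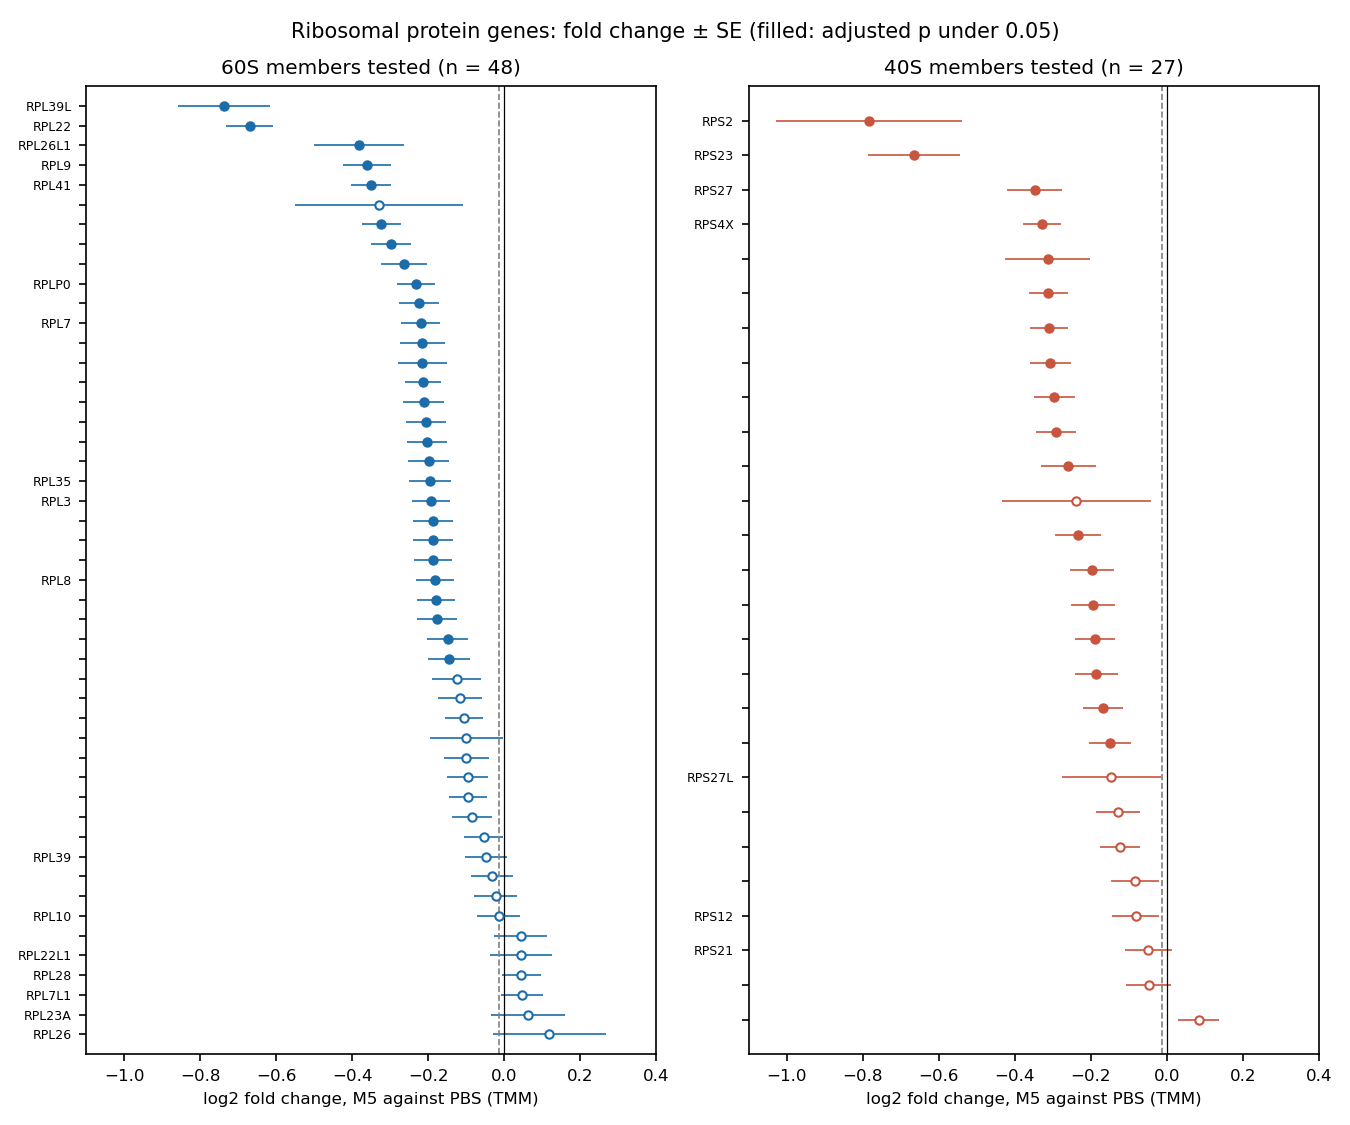
Log2 fold change of M5 against PBS (x axis, TMM scaling) for each tested member (1 row each, y axis; only genes described in the text are labelled), 60S on the left and 40S on the right; points are estimates, bars 1 SE, filled points have an edgeR adjusted p under 0.05, and the dashed line is the median of all tested genes. Most members lie between -0.4 and 0, with RPL39L, RPL22, RPS2 and RPS23 further left. The RPS2 row holds only 46 to 86 counts per library. With library totals or TPM scaling all 75 points lie below 0.

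**Figure D2:**
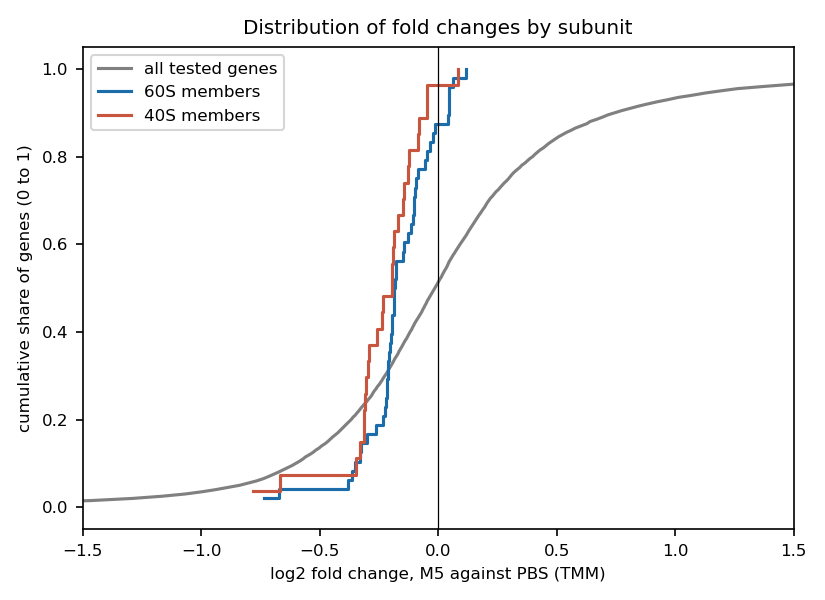
Cumulative share of genes (y axis) by log2 fold change of M5 against PBS (x axis, TMM scaling) for all tested genes (grey), 60S members (blue) and 40S members (red); the x axis is limited to 1.5 on either side. Both member curves rise steeply left of 0, with medians of -0.18 and -0.20, while the grey curve is spread on both sides of its median of -0.01.

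With TMM, other genes of high level were more often higher than lower. Of 264 tested genes outside the set with a mean FPKM of at least 100, 66 fell and 122 rose, and their median log2 fold change was 0.10. Among the 43 members at that level 30 fell and 0 rose, with a median of -0.19. Over the 75 tested members, the fold change and the mean FPKM had a Spearman correlation of 0.0494 across genes, which share libraries and are not independent.

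The members' share of the library also fell. They held 4.33% and 4.49% of counts in the PBS libraries and 3.45% and 3.55% in the M5 libraries, so the groups do not overlap. The means were 4.41% ± 0.108 and 3.50% ± 0.0703 (SD, n = 2). With 2 against 2 libraries an exact two-sided permutation test cannot go below p = 0.333. A share also depends on the other genes of the library, and those with a rise of 2-fold or more took up 3.82% of PBS and 12.2% of M5 counts on average. With all genes that changed at least 2-fold left out, the members' shares were 4.67% ± 0.114 and 4.01% ± 0.0828.

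Counts of 60S members were 2.48 and 2.43 times those of 40S members in PBS, and 2.54 and 2.51 times in M5. The means were 2.45 ± 0.0337 and 2.52 ± 0.0210 (SD, n = 2), and both M5 ratios lie above both PBS ratios.

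**Figure D3:**
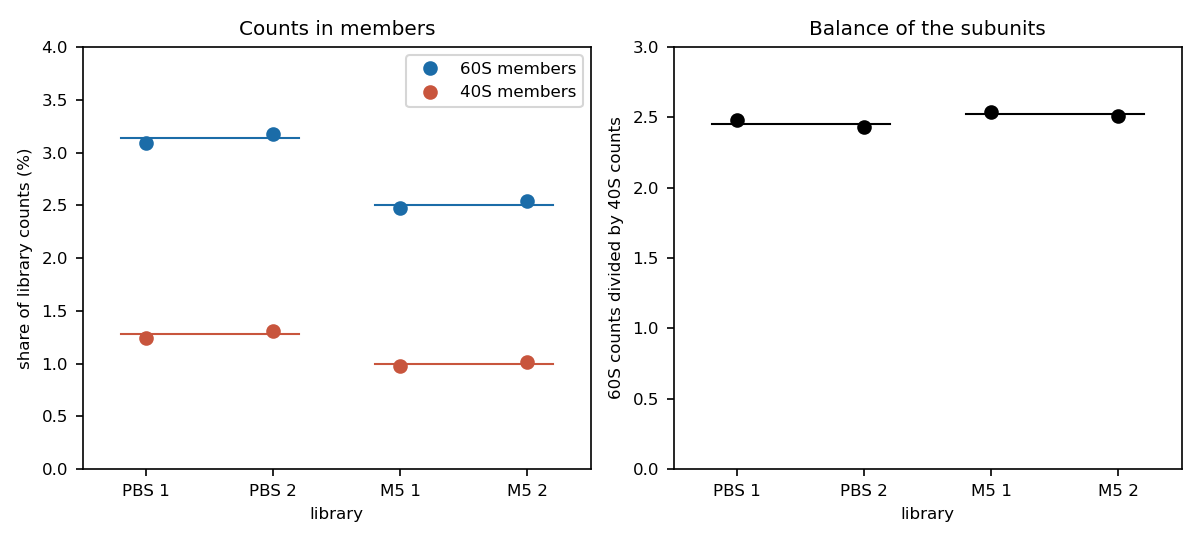
Left, share of all counts of a library (y axis, percent) held by 60S and by 40S members; right, counts of 60S members divided by those of 40S members; the x axis gives the 4 libraries, points are single libraries and lines are means of 2. The 60S share was 3.09% and 3.18% in PBS and 2.48% and 2.54% in M5, while the ratio stayed between 2.43 and 2.54.

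Levels between genes are given as FPKM, per kilobase of the length behind the deposited values. These lengths have a median of 3208 bases over the members, 3.62 times the shortest principal transcript of the same gene (median of the ratio), so these FPKM are lower than values per mRNA length would be. On this scale the mean over the libraries ranged from 1.24 to 634 among tested 60S members, with a median of 152, and from 1.62 to 748 among tested 40S members, with a median of 125. As CPM per kilobase of the shortest principal transcript, a scale chosen after seeing the data, the medians of tested members were 601 and 599. The order of members was similar on both scales (Spearman's rho 0.879 over 82 genes that share the counts). RPS12 led by FPKM and RPL35 per transcript length, ahead of RPS3, RPL19 and RPL23, the last 3 of these named after their values were seen.

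The P stalk of the 60S recruits the translation factors that hydrolyse GTP. RPLP0, its base (chromosome 12, 120196686 to 120201235), had 1918 and 1997 CPM in PBS and 1620 and 1713 in M5. Both M5 values are lower, with a log2 fold change of -0.23, an SE of 0.05 and an edgeR adjusted p of 0.000708, and the call held in all 16 other fits. RPL12, which sits beside it, fell by 0.32 on the log2 scale, from 748 and 765 CPM to 607 and 602. The paired stalk tips RPLP1 and RPLP2 gave smaller values, -0.05 and -0.10 (edgeR adjusted p = 0.393 and 0.144), although in both genes the M5 values lay below the PBS values. RPL12, RPLP1 and RPLP2 were chosen after their values were seen.

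RPL3 and RPL8 lie near the peptidyl transferase centre and RPL4 lines the exit tunnel, and each fell. They are not a full list of the proteins at these sites. RPL3, which reaches toward the catalytic centre, had 1305 and 1359 CPM in PBS and 1162 and 1169 in M5 (log2 fold change -0.19). RPL8, on chromosome 8 and also near that centre, had 1469 and 1427 CPM against 1289 and 1264 (-0.18). RPL4, which lines the tunnel and is named for its high counts, went from 2549 and 2628 CPM to 2254 and 2213 (-0.21). In each of these the groups do not overlap and the test was passed (edgeR adjusted p from 0.000894 to 0.00418). The calls of RPL3 and RPL8 were lost without PBS replicate 2 and PBS replicate 1 in turn (edgeR adjusted p = 0.105 and 0.108).

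RPL35, at the tunnel exit, had 684 and 712 FPKM in PBS and 572 and 527 in M5, with a log2 fold change of -0.19 that did not pass without PBS replicate 2 (edgeR adjusted p = 0.106). The RPL35 call was also lost without a filter on low values. RPL23A, a docking site for nascent chain factors at the tunnel exit, was at 30.4 and 32.7 CPM in PBS and 35.0 and 30.9 in M5, and the groups overlap. RPL10, which joins late in assembly and closes the catalytic site, had 752 and 776 CPM against 719 and 794, a log2 value of -0.01 that was 0.07 without M5 replicate 1. With library totals RPL10 passed as lower at -0.17 (edgeR adjusted p = 0.0173).

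RPL41, the smallest of the proteins, was among the 4 highest of the 60S by FPKM. It had 696 and 716 FPKM in PBS and 484 and 513 in M5, with a TMM-scaled log2 fold change of -0.35, an SE of 0.05 and an edgeR adjusted p of 1.55e-05. RPL9, on chromosome 4, went from 362 and 387 CPM to 273 and 310 (-0.36, SE 0.06). Both calls held in each alternative. RPL28, a protein of the 60S surface of eukaryotes, lay slightly above, with 522 and 529 CPM in PBS and 538 and 547 in M5; its log2 value of 0.05 did not pass, and it was -0.14, past the threshold as lower, with TPM scaling.

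RPL5 and RPL11 form, with 5S rRNA, the particle that binds MDM2 and so ties ribosome assembly to p53; they were chosen for that role with their values known. RPL5 had 868 and 899 CPM in PBS against 736 and 790 in M5, and RPL11 had 582 and 588 against 508 and 506. Both gave a log2 fold change of -0.21 (edgeR adjusted p = 0.0025 and 0.00227) and neither call held without PBS replicate 2 (edgeR adjusted p = 0.0658 and 0.0512).

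In the 40S, 4 abundant members fell in every fit run. RPS3, at the mRNA entry, went from 1852 and 1903 CPM in PBS to 1478 and 1551 in M5, with a log2 fold change of -0.31, an SE of 0.05 and an edgeR adjusted p of 3.3e-05. RPS4X, the X-linked copy (chromosome X, 72255679 to 72277300), went from 980 and 1002 CPM to 786 and 791 (-0.33). RPSA, on the solvent side and also known as a laminin receptor, went from 697 and 705 to 554 and 576 (-0.31). RPS6, the substrate of the S6 kinases, went from 643 and 681 to 536 and 545 (-0.29). In these 4, RPS3, RPSA and RPS6 being chosen after their values were seen, both M5 libraries lie below both PBS libraries.

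RPS23, which lies at the decoding centre (chromosome 5, 82273358 to 82278577), fell 1.59-fold, from 23.4 and 24.7 CPM to 14.1 and 16.2, at a log2 value of -0.67 (SE 0.12, edgeR adjusted p = 0.000114). Its row holds 254 to 418 counts per library and has a mean FPKM of 4.90, where the median of tested 40S members was 125.5. Whether this row holds all reads of the gene was not tested. RPS27 had 274 and 335 CPM in PBS and 243 and 236 in M5, a log2 fold change of -0.35 that was -0.20 without PBS replicate 2 (edgeR adjusted p = 0.0609). The PBS libraries of this gene differ from each other by more than the lower of them differs from M5.

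Other abundant 40S members did not pass the test with TMM. RPS12, in the beak of the subunit, had 819 and 798 FPKM in PBS and 636 and 739 in M5, a log2 value of -0.08 on the TMM scale that was 0.03 without M5 replicate 1 and -0.18 without M5 replicate 2 (edgeR adjusted p = 0.00066). It passed as lower with library totals (-0.23, edgeR adjusted p = 0.00384), TPM scaling and both limma fits. RPS21, beside RPSA on the small subunit, had 327 and 360 FPKM against 285 and 313, a TMM-scaled value of -0.05 that passed as lower with library totals (-0.20, edgeR adjusted p = 0.00921) and TPM scaling. In both genes the groups overlap once scaled by TMM.

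In each of 17 fits, the one reported and 16 others, the same 16 of 75 members (21.3%) passed as lower, as did 11.7% of all 10809 tested genes. Among them were RPL4, RPL9, RPL12, RPL21, RPL22, RPL24, RPL31, RPL39L, RPL41 and RPLP0 of the 60S and RPS3, RPS4X, RPS6, RPS24 and RPSA of the 40S. One fit tested only rows averaging 5 FPKM or more, 69 members among them, and a gene below that level could not be counted. The median FPKM was 7.03 over all tested genes and 145.8 over tested members, so the 21.3% and 11.7% cannot be compared directly. RPS23, at a mean FPKM of 4.90, passed as lower in the reported fit and in the 15 others that tested it.

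Some canonical proteins have a paralog that can take their place in the ribosome. RPL22, RPL39L, RPL26L1, RPL7 and RPS27 fell while the value of the other gene of each pair did not pass with TMM. These are all the pairs with a row for both genes, and 61.3% of all tested members fell. RPL22, a 60S protein that also binds RNA outside the ribosome and is dispensable for bulk translation (chromosome 1, 6185020 to 6209389), had 99.0 and 100.4 CPM in PBS and 61.8 and 63.6 in M5. It fell 1.59-fold, with a log2 fold change of -0.67, an SE of 0.06 and an edgeR adjusted p of 3e-08. RPL22L1, whose mRNA RPL22 is known to repress (chromosome 3, 170864875 to 170870483), had 48.8 and 54.1 CPM in PBS and 50.6 and 55.5 in M5, with overlapping groups and a log2 value of 0.04 (SE 0.08, edgeR adjusted p = 0.664). Its value was -0.14 with TPM scaling and -0.11 with library totals. RPL22L1 made up 52.8% and 55.1% of the summed FPKM of the pair in PBS and 65.1% and 66.5% in M5. Which gene is in the majority depends on the length used, 4665 and 2051 bases for RPL22 and RPL22L1 behind FPKM and 2078 and 2190 bases for their shortest principal transcripts. Per transcript length, a scale added after seeing the data, RPL22L1 held 31.9% and 33.8% of the pair in PBS samples, against 43.8% and 45.3% with M5. On either scale both M5 shares lie above both PBS shares, and library scaling does not alter them.

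RPL39L, known from male germ cells and from tumour lines (chromosome 3, 187120948 to 187180908), fell 1.67-fold, from 25.4 and 23.3 CPM to 13.7 and 15.5 (log2 value -0.74, SE 0.12, edgeR adjusted p = 4.24e-05). Its canonical partner RPL39, on the X chromosome, had 286 and 302 CPM in PBS and 288 and 281 in M5, with overlapping groups (-0.05, edgeR adjusted p = 0.492). With library totals it passed as lower (-0.20, edgeR adjusted p = 0.00431), as it did with TPM scaling and both limma fits. The share of RPL39L in the FPKM of this pair was 15.5% and 13.7% in PBS, against 8.93% and 10.2% in M5. Per transcript length it was 5.17% and 4.53% against 2.84% and 3.28%. The level of this share thus depends on the length used, and both M5 shares lie below both PBS shares on either scale.

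RPL26L1 (chromosome 5, 172958729 to 172969771) went from 25.8 and 25.1 CPM to 17.4 and 21.7, or -0.38 on the log2 scale (edgeR adjusted p = 0.0102), a call lost without M5 replicate 1 (-0.22). The RPL26L1 call was also lost without a filter on low values. RPL26 had 11.8 and 13.4 CPM in PBS and 14.5 and 12.9 in M5, with overlapping groups. The 6 pseudogene rows named after it held 139 to 154 counts per library against 198 to 261 of its own.

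RPL7 went from 976 and 1025 CPM to 865 and 853 (-0.22), a call lost without PBS replicate 2 (edgeR adjusted p = 0.0679). RPL7L1, a nucleolar assembly factor rather than a stand-in, had 264 and 273 CPM in PBS and 272 and 283 in M5 (0.05, edgeR adjusted p = 0.502; -0.14 and past the threshold with TPM scaling). RPS27L, a p53 target, had 20.4 and 25.6 CPM in PBS and 18.7 and 22.9 in M5. Its log2 value of -0.15 (edgeR adjusted p = 0.357) was 0.02 without PBS replicate 2 and -0.33, past the threshold, with TPM scaling, and replicates lay further apart than the group means. No test of a difference between a canonical gene and its paralog was run.

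**Figure D4:**
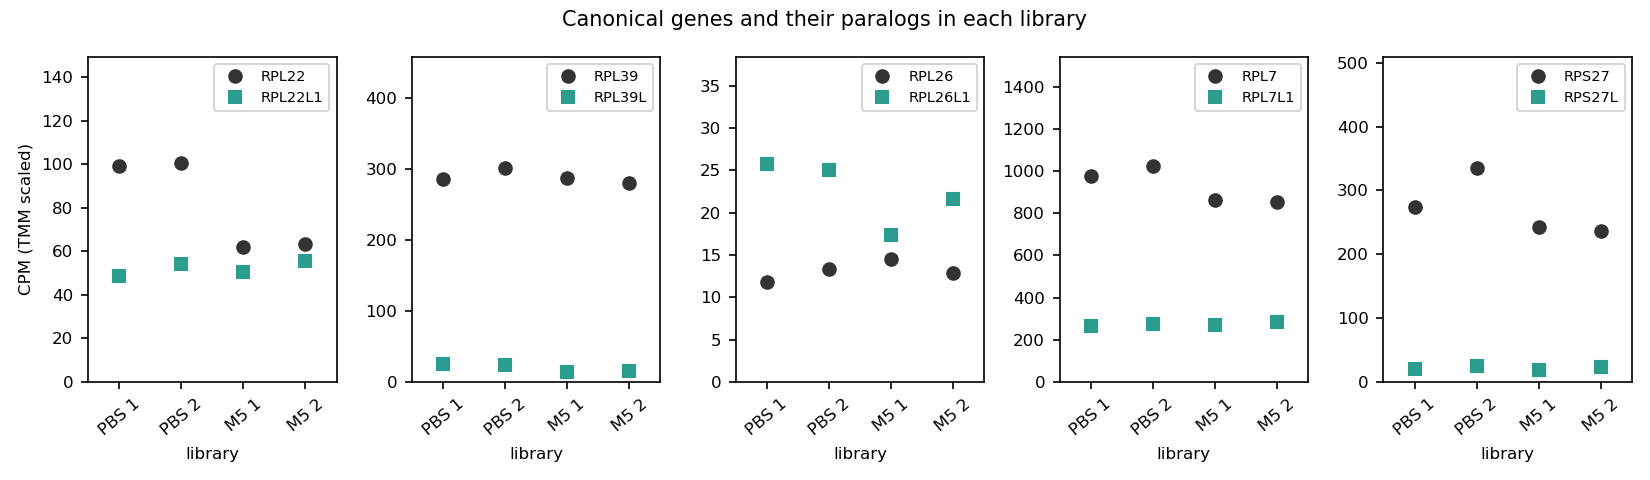
CPM with TMM scaling (y axis, from 0) of 5 canonical genes (circles) and their paralogs (squares) in each of the 4 libraries (x axis). RPL22 went from 99.0 and 100.4 to 61.8 and 63.6 while RPL22L1 lay between 48.8 and 55.5; RPL39L went from 25.4 and 23.3 to 13.7 and 15.5 while RPL39 lay between 281 and 302 on this scale.

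Not every ribosomal protein gene could be measured in its own row. Of the 82 members 7 did not reach a mean FPKM of 1, among them RPS3A, RPS10, RPS18, RPS25, RPL7A and RPL17, although each protein belongs to every ribosome. RPS25 had 1 to 3 counts per library, RPS3A 1 to 7, RPL7A 8 to 34, RPL17 26 to 38, RPS10 17 to 37 and RPS18 4 to 47. The values of RPS18 differed most between replicates, with 8 and 47 counts in PBS. Ribosomal protein genes have left many intronless copies, processed pseudogenes, in the genome, and a read that fits both cannot be placed with certainty. Rows named as pseudogenes of RPS25 held only 1 to 4 counts per library, and those of RPS10 held 18 to 27. Why RPS10 and RPS25 have so few counts was not tested.

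Rows named as pseudogenes of a member numbered 481, from 69 parents, and held 0.194% and 0.210% of counts in PBS and 0.156% and 0.152% in M5. For 7 members these rows held more counts than the member itself, namely RPS2, RPS28, RPL7A, RPL36A, RPL17, RPS3A and RPS18. The row of RPS2 had 86 and 76 counts in PBS and 46 and 57 in M5, while its 13 pseudogene rows had 7807 and 9236 in PBS and 7601 and 6626 in M5. Most of these lay in the row RPS2P5, with 6429 and 7718 counts in PBS and 6543 and 5152 in M5. RPS3A had at most 7 counts of its own, and 573 to 754 per library in its pseudogene rows.

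Which of these loci was transcribed was not tested. The log2 fold change of the RPS2 row, -0.78 (SE 0.24, edgeR adjusted p = 0.0109), was -0.39 (SE 0.08, edgeR adjusted p = 0.000218) once the pseudogene rows were summed into it. The call on its own row was lost by DESeq2 (adjusted p = 0.0553) and, by edgeR, without PBS replicate 1 or M5 replicate 1 (adjusted p = 0.073 and 0.0618). With such sums, an alternative chosen after seeing the data, RPS3A was at -0.44 (edgeR adjusted p = 0.000336), RPL7A at -0.20 (0.0141), RPL17 at -0.32 (0.0246) and RPL36A at -0.29 (0.00417), all lower, while RPS18 at -0.07 and RPS28 at -0.11 did not pass. Of 80 members then tested 50 fell, the 46 named by the first fit among them, where 27.4% of all genes fell. Of the 86 pseudogene rows tested by themselves 16 fell and 3 rose, with a median of -0.17; the 16 are a smaller share than the 27.1% of all tested genes that fell.

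**Figure D5:**
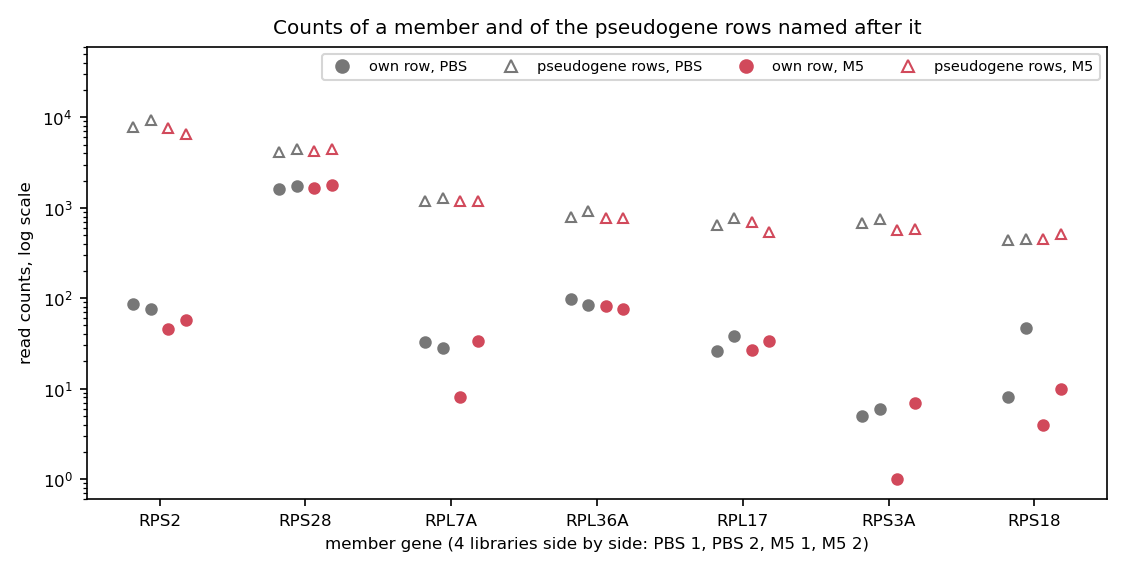
Read counts per library (y axis, log scale) of the 7 members (x axis) whose own row (filled circles) held fewer counts than the pseudogene rows named after them (open triangles), PBS in grey and M5 in red, 1 point per library. RPS2 had 46 to 86 counts in its own row and 6626 to 9236 in the pseudogene rows; in all 7 the pseudogene rows lie above the own row in each library.

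Of 5 ribosomal protein genes whose names fall outside the rule, 1 fell and 2 rose with TMM (20% and 40%, against 27.1% and 28.8% of all tested genes). With library totals 3 fell and 0 rose (60% and 0%, against 41.3% and 20.4%). RPSA2, a close copy of RPSA, was at -0.31 (edgeR adjusted p = 0.0197), a call lost by DESeq2 and without PBS replicate 1 or M5 replicate 1. The RPSA2 call was also lost without a filter on low values. RPL36AL, a second gene for the protein of RPL36A, had 116 and 118 CPM against 134 and 133 (0.19, edgeR adjusted p = 0.00991) and was at 0.0062 with TPM scaling. This call was also lost without either PBS library. FAU, the ubiquitin-like fusion that gives eS30, and RACK1, a signalling scaffold on the 40S head, had values of -0.09 and -0.08 and did not pass.

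Other mRNAs with a TOP tract, chiefly translation factors, were read from the same fits. Of 22 tested, 12 fell (54.5%, against 27.1% of all tested genes) and 2 rose (9.09%, against 28.8%), with a median of -0.17. With TPM scaling 18 fell (81.8%, against 43.8%), and without PBS replicate 2, 4 fell (18.2%, below the 21.8% of all genes). EEF1B2, an exchange factor of elongation, had the largest value (-0.84), from 3.71 and 6.39 CPM to 2.50 and 3.14, a call lost by DESeq2 and without PBS replicate 2 or M5 replicate 1. HNRNPA1, an RNA-binding protein, fell by 0.36 on the log2 scale and the histone chaperone NAP1L1 by 0.40, and EIF4B, which helps the cap-binding helicase, by 0.28. EEF1A1, which brings tRNA to the ribosome and is named, like EEF2, after its value was seen, had 8398 and 8706 CPM in PBS and 7362 and 7853 in M5, or -0.17 (edgeR adjusted p = 0.00459), not past the threshold without PBS replicate 2. Without a filter on low values the calls of EEF1B2 and EEF1A1 were also lost. EEF2, the translocase, was at -0.04 and did not pass.

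Of 13 tested genes of RNA polymerase I and its cofactors, which make rRNA, 7 fell (53.8%, against 27.1% of all tested genes). The number that rose was 0, where 28.8% of all tested genes rose, and the median was -0.19. By DESeq2 3 fell (23.1%, near the 21.8% of all genes). Without PBS replicate 1, 2 fell (15.4%, below the 22.0% of all genes), and without M5 replicate 1, 4 fell (30.8%, against 26.0%) and 1 rose. POLR1E, a subunit needed for initiation, fell from 44.97 and 43.4 CPM to 29.7 and 27.8 (-0.62, SE 0.09, edgeR adjusted p = 8.79e-06). UBTF, which holds rDNA open, fell from 136 and 148 CPM to 113 and 104 (-0.40, SE 0.06, edgeR adjusted p = 3.63e-05).

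Assembly factors moved both ways. Of 44 tested, 16 fell (36.4%, against 27.1% of all tested genes) and 6 rose (13.6%, against 28.8%) with TMM. With library totals 33 fell and 3 rose, where 41.3% and 20.4% of all genes did, and with TPM scaling again 33 and 3, where 43.8% and 18.8% did. Without PBS replicate 1, 9 fell (20.5%, near the 22.0% of all genes). PPAN, needed for 60S assembly, was at -0.64, a call lost without PBS replicate 1. NHP2, a protein of the pseudouridylation particles, fell by 0.56, and UTP20, of the early 40S precursor and named after its value was seen, by 0.40. SBDS rose from 66.5 and 68.6 CPM to 107 and 118 (0.74, SE 0.07, edgeR adjusted p = 1.7e-08) and EIF6 from 103 and 103 to 147 and 136 (0.46, edgeR adjusted p = 3.27e-06). EIF6 keeps the new 60S from joining the 40S and SBDS helps to release it, so the pair acts at the same late step. Both also passed as higher in every alternative run.

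Of 29 tested regulators, 6 fell and 6 rose with TMM (20.7% each, below the 27.1% and 28.8% of all tested genes). With library totals 12 fell (41.4%, near the 41.3% of all genes) and 3 rose (10.3%, against 20.4%). The median log2 fold change of the regulators was 0.068 with TMM, -0.083 with library totals and -0.11 with TPM scaling, so its sign depends on the scaling. With TMM it was 0.056 without M5 replicate 2 and 0.016 without M5 replicate 1. MYC, which drives ribosome genes, was at 264 and 264 CPM in PBS and 273 and 280 in M5 (0.07, edgeR adjusted p = 0.300) and at -0.11 with TPM scaling; MYC, LARP1 and RPS6KB1 are named for their roles, with their values known. MXD1, which competes with MYC for MAX, rose from 24.5 and 26.5 CPM to 74.95 and 75.4 (1.56, SE 0.08, edgeR adjusted p = 4.74e-12). MDM2, the p53 ligase that RPL5 and RPL11 bind, rose by 0.49 and DDIT4, an inhibitor of mTOR, fell by 0.50; RICTOR, of the second mTOR complex, rose by 0.37, a call lost by limma. LARP1 was at 0.12 and did not pass (edgeR adjusted p = 0.0611). Of 6 tested kinases named for RPS6, 3 rose and 0 fell, where 28.8% of all tested genes rose. RPS6KA2, a p90 kinase downstream of ERK, rose from 28.2 and 26.2 CPM to 91.8 and 88.8 (1.73, SE 0.08, edgeR adjusted p = 3.47e-13), RPS6KA4 and RPS6KA3 rose by 0.46 and 0.40, and RPS6KB1, the S6 kinase under mTOR, was at 0.14 and did not pass.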

How the data were processed

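Each library has 1 file with a read count and an FPKM value per gene, per the file headers. The deposited FPKM are the deposited counts divided by a gene length and the file's own total: count divided by FPKM gave whole lengths to within 3.1e-08 bp. HISAT2, HTSeq 0.13.5 and GRCh38 are listed in the submitters' processing notes, without roles. Which annotation and strand setting were used, and how multiply aligned reads were counted, is not given in the sources used here. Because the kit in the labels does not mark strand, reads from overlapping genes cannot be told apart.

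Counts were tested with edgeR 4.0.16 (glmQLFit, glmQLFTest, R 4.3.3), TMM scaling, two-sided, on the 10809 genes whose FPKM averaged 1 or more, with Benjamini-Hochberg adjustment over all of them. Values are CPM scaled by TMM unless FPKM is named. SEs were taken as the size of the log2 fold change over the root of edgeR's F. Alternatives used limma 3.58.1, DESeq2 1.42.0, other scalings and filters, a replicate block and each library left out. In simulated counts for these 10809 genes, 200 were changed, and 28% of those changed 1.2-fold and 70% of those changed 1.5-fold were recovered. In the data 2929 genes were called lower and 3114 higher. The adjusted p threshold depends on how many genes change, so these shares do not give the recovery in the data. Members and lists were chosen with earlier results of these data known. Named members are the 6 largest values in each direction, the 4 highest FPKM of each subunit, the paralog pairs and the untested members, and in other lists up to 4 called genes; any other gene is marked in the text as picked with its value known. A few genes are counted in the totals and not reported here by name.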

Additional observations from a re-analysis of the deposited data

How the results depend on the processing

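Over 16 other fits the member medians stayed below 0, and no member rose except 1 without M5 replicate 2. With each library left out, 20 to 55 members fell, the 60S median was -0.20 to -0.15 and the 40S median -0.28 to -0.17. The 60S and 40S medians were -0.34 and -0.35 with library totals, -0.37 and -0.38 with TPM scaling, -0.33 and -0.34 with limma on log2(FPKM + 1), and -0.34 and -0.35 with limma on log2(FPKM + 0.1). The share of counts differed by -0.663 percentage points without 2-fold changed genes.

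With a replicate block 46 members fell, the same 46, and the medians were -0.18 and -0.20. Same-numbered libraries did not deviate together (Pearson r = -0.0207 across 10809 genes, and -0.348 across the 75 tested members).

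Small member values changed sign in some fits; the cause was not tested. With library totals, TPM scaling, limma with 1 added and limma with 0.1 added, in that order, RPL22L1 was at -0.11, -0.14, -0.10 and -0.11, RPL23A at -0.089, -0.12, -0.084 and -0.089, and RPL26 at -0.032, -0.062, -0.026 and -0.030. RPL28 was at -0.11, -0.14, -0.10 and -0.11, and RPL7L1 at -0.105, -0.14, -0.10 and -0.10. RPL10 was at 0.013 without a filter on low values, and RPL26 at -0.0058 with pseudogene rows summed, an alternative added after seeing the data. With each library left out, RPL10 ranged from -0.083 to 0.067, RPL22L1 from -0.035 to 0.12, RPL23A from -0.020 to 0.16, RPS12 from -0.18 to 0.030, RPS21 from -0.12 to 0.024 and RPS27L from -0.31 to 0.021.

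RPS3A, RPS10, RPS18, RPS25, RPL7A and RPL17 have under 50 counts in each library, and the cause was not tested. Only 28% of simulated 1.2-fold changes were recovered. The 200 changed genes were drawn from all 10809 tested genes, whose median FPKM was 7.03, against 145.8 for tested members. Far more genes were called in the data, 2929 lower and 3114 higher, so the simulated threshold was not the one met there. The share recovered at the level of the members was not measured.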
